A study of Sus scrofa with 6 samples.

Results

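Tubulins, microtubule-binding proteins, dynein with its activator dynactin, the kinesins that carry cargo and the proteins that anchor microtubules were followed in porcine satellite cells (PSCs), the stem cells of skeletal muscle, as they differentiated. The genes were found by symbol from a list of 60. A row with the symbol was found for 43 of the 60 among the 28266 rows of the expression table. Of these, 37 reached a mean FPKM (fragments scaled to gene length and to the fragments counted in the library) of at least 1 and were tested, and 6 lay below that minimum.

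The cells came from the limb muscles of 3-day-old Yorkshire male pigs and were switched to a low-serum differentiation medium. The comparison was between 2 groups of 3 libraries, titled N1 and N2, each with replicates 4, 5 and 6. The N1 group was harvested at 24 h of differentiation. The N2 group carries 48 h in its sample labels and 36 h in the series title and in the study, and it is called the 36 h group here. The letter N is the one with which the study marks its negative control (NC) siRNA, so all 6 libraries were read as cells that carried NC siRNA; the labels themselves name no siRNA. No label says whether the replicates were separate animals or separate dishes, so the p-values measure the spread between these libraries, which may be technical.

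Microtubules are hollow polymers of alpha- and beta-tubulin dimers with a slow minus end and a fast-growing plus end. In a dividing myoblast they radiate from the centrosome, while in a myotube, the multinucleated cell that forms when myoblasts fuse, they run in parallel arrays along the cell and are nucleated from the surface of the nuclei. Pericentriolar proteins such as PCM1, PCNT and AKAP9 move to the nuclear envelope during this change, where SYNE1 and AKAP6 hold them, and kinesin and dynein then move and space the nuclei.

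The summed FPKM of skeletal muscle markers was high in every library. Of 22 listed skeletal muscle genes 15 had a row, and their summed FPKM lay between 12804.2 and 19841.6 at 24 h and between 32461.8 and 36568.0 at 36 h. ACTC1 was the highest of them, at 7181.96 to 9539.35 at 24 h and 11108.29 to 12318.65 at 36 h. Not every muscle gene was high, since at 24 h CACNA1S was at 0.529 to 1.59 and MYF6 at 3.1 to 3.37. The label's extraction text names endometrium, but EPCAM, KRT8, KRT18, PGR and ESR1, markers of that tissue, were each under an FPKM of 1 in every library; CDH1, found in many epithelia, was at 0.107 to 0.43 at 24 h and 2.35 to 4.36 at 36 h. Of 10 listed fibroblast genes 7 had a row, with a summed FPKM of 932.1 to 1002.8 at 24 h and 827.4 to 1033.4 at 36 h. Of these, DCN, LUM and COL1A2 fell (3.07-fold, 3.01-fold and 1.54-fold), COL3A1 and POSTN rose (1.84-fold and 1.61-fold), FAP did not pass and PDGFRA was under an FPKM of 1 in every library. The part of such cells in the results was not tested. The 24 h replicate 6 stood apart from replicates 4 and 5, with the lowest muscle sum (12804.2) and the highest sum of proliferation genes, of which 12 of 18 listed had a row (190.6 against 73.7 and 98.7, and 23.7 to 30.4 at 36 h). Within the muscle list MYOD1 and MYF5 went the other way. MYOD1 was at 254.83, 305.95 and 386.36 in 24 h replicates 4, 5 and 6, and MYF5 at 66.92, 75.35 and 111.84. MYF6 was also highest in replicate 6 at 24 h, and the other muscle genes with a row were lowest there. The part of this library's state in the results below was not tested, and values without it are given where it matters. The 36 h replicate 6 also lay apart from its group, but less so, and had the lowest muscle sum at 36 h (32461.8). Its Pearson r of log2(FPKM + 1) with 36 h replicates 4 and 5 was 0.987 and 0.99, against 0.994 between those. For 24 h replicate 6 the values were 0.972 and 0.981, against 0.993. The part of the 36 h library's state was not tested either. In cultures measured in bulk, fewer cells of a type and less RNA per cell cannot be told apart.

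Between 24 h and 36 h, 25 of the 37 tested members changed (67.6%, limma adjusted p under 0.05), 6 upward (16.2%) and 19 downward (51.4%). Across all 14060 genes tested, 50.9% passed the same threshold, 16.5% upward and 34.4% downward, so that a majority of changed genes is the rule in this comparison and not particular to the members. The median log2 change was -0.20 over the tested members and -0.16 over all genes tested. In 27 members (73.0%) every library of one time lay above every library of the other, against 63.6% of all genes tested. The count was sensitive to single libraries. It was 16 without 24 h replicate 5 (39.6% of all genes then passed), 14 without 36 h replicate 5 (34.8%) and 27 without 24 h replicate 6 (52.2%).

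**Figure D1:**
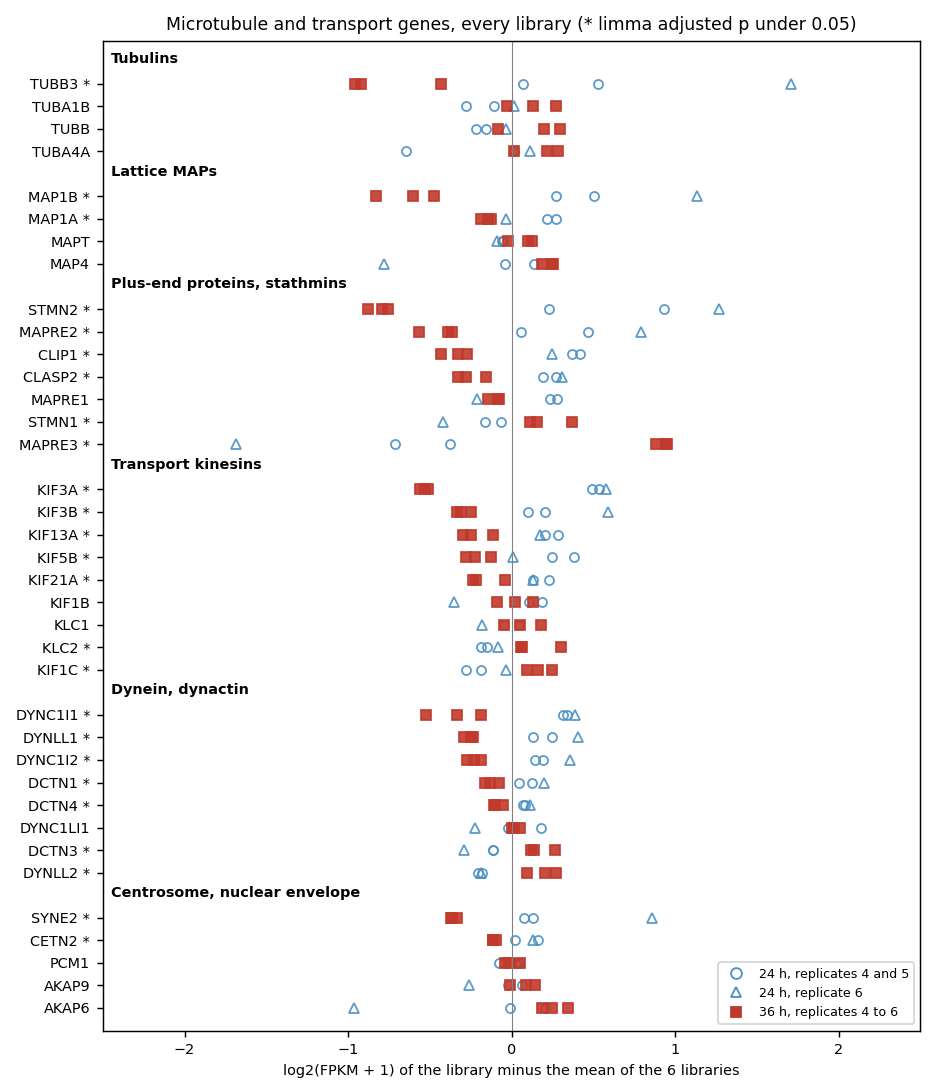
Each row is 1 tested gene and each symbol 1 library, plotted as log2(FPKM + 1) minus the mean of the 6 libraries, with open circles for 24 h replicates 4 and 5, open triangles for 24 h replicate 6 and filled squares for 36 h. MAPRE3 stands far to the right at 36 h and STMN2, TUBB3, MAP1B and KIF3A to the left, while PCM1, KIF1B and DYNC1LI1 overlap.

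Of the tubulins, TUBA1B, TUBA4A, TUBB and TUBB3 had a row, and TUBA1A, TUBA1C, TUBA8, TUBB2A, TUBB2B, TUBB4B, TUBB6 and the gamma-tubulin TUBG1 were not analysed here. TUBB (ENSSSCG00000001379), the abundant beta-tubulin of most cells, was the highest of all tested members. Its FPKM was 492, 512 and 557 in 24 h replicates 4, 5 and 6 (the order used throughout) and 701, 656 and 539 at 36 h. The groups overlapped, since 36 h replicate 6 lay below 24 h replicate 6. The log2 change of 0.27 (standard error 0.11) missed the threshold (limma adjusted p = 0.0811), but passed without 36 h replicate 6 (0.38, limma adjusted p = 0.0216) and with median-ratio scaling (0.45, limma adjusted p = 0.0138). TUBA1B (ENSSSCG00000000190), the ubiquitous alpha-tubulin, had 342, 303 and 371 at 24 h and 360.4, 443 and 402 at 36 h, again with overlap (log2 change 0.25, standard error 0.11, limma adjusted p = 0.0945). It passed without 24 h replicate 6 (0.31, limma adjusted p = 0.0411) and with median-ratio scaling (0.42, limma adjusted p = 0.0173). Tubulin genes have near-identical copies, and reads shared between them may have been split or dropped by the counting, so the levels of TUBB and TUBA1B are uncertain.

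The minor isotypes differed from each other. TUBB3 (ENSSSCG00000002639), the beta-tubulin best known from neurons, had 9.15, 12.9 and 30.6 at 24 h and 4.11, 3.98 and 6.15 at 36 h. Every 24 h library lay above every 36 h library, and the widest gap came from 24 h replicate 6. TUBB3 fell by 1.54 on the log2(FPKM + 1) scale (standard error 0.40, limma adjusted p = 0.0184), and by 1.07 without 24 h replicate 6. Its adjusted p ranged from 0.00592 to 0.0638 over the alternatives and missed the threshold without 36 h replicate 4 or 5. TUBA4A, an alpha-tubulin encoded without the final tyrosine of other isotypes, was low in every library, with 1.35, 2.72 and 2.98 at 24 h and 3.27, 3.47 and 2.72 at 36 h, and did not pass the test (limma adjusted p = 0.212).

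FPKM is scaled to gene length, so isotypes could be added. The sum of TUBB and TUBB3 was 500.9, 525.2 and 587.5 at 24 h and 705.2, 660.1 and 544.9 at 36 h. TUBB3 made up 1.83%, 2.46% and 5.21% of that sum at 24 h and 0.583%, 0.603% and 1.13% at 36 h, with no overlap between the times. The sum of TUBA1B and TUBA4A was 343.0, 305.7 and 373.5 at 24 h and 363.7, 446.6 and 404.4 at 36 h. In both sums the times overlapped (two-sided exact permutation p = 0.2 for both). With 3 against 3 that test cannot go below 0.1, so it could not have passed and does not show that the sums were alike.

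Neuronal genes were measured beside TUBB3 because TUBB3, STMN2, MAP1B and DYNC1I1 are best known from neurons. Of 9 listed neuronal markers 5 had a row, and their summed FPKM was 6.23 to 10.6 at 24 h and 2.93 to 3.74 at 36 h. SNAP25, SYT1 and INA had 0 to 2 fragments in every library, while the sum came from SYP and NEFL. SYP fell by 0.46 (limma adjusted p = 0.0211), but not past the threshold with either scaling (0.0571 and 0.0645) or in 3 fits that left out a library. NEFL fell by 1.67 (limma adjusted p = 0.00208) and reached the minimum through its 24 h libraries only. The part of such cells or of such transcripts in the falls was not tested.

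Among the lattice-binding MAPs, which stabilise and bundle microtubules along their length, MAP1A and MAP1B fell. MAP1B, prominent in growing neurites and in immature cells, had an FPKM of 43.1, 50.8 and 79.3 at 24 h and 19.6, 23.1 and 25.3 at 36 h. The lowest 24 h library was above the highest at 36 h. MAP1B fell by 1.27 (standard error 0.22, limma adjusted p = 0.00421), kept its call in every alternative and fell by 1.02 without 24 h replicate 6. MAP1A, its larger relative, had 204, 196 and 165 at 24 h and 148, 154 and 153 at 36 h, and fell by 0.30 (standard error 0.09, limma adjusted p = 0.0275). That smaller fall did not hold with median-ratio scaling (log2 change -0.13, limma adjusted p = 0.366), nor in 5 of the 6 fits that each left out a library, the exception being 24 h replicate 6, and its adjusted p ranged from 0.00187 to 0.366 over the alternatives.

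MAP4, the main MAP of non-neuronal cells with a muscle isoform that organises myotube microtubules, was at 136, 120.3 and 71.5 at 24 h and 147, 147 and 141 at 36 h. All 36 h libraries lay above all 24 h libraries, but the log2 change of 0.46 (standard error 0.22) did not pass (limma adjusted p = 0.126). The low value of 24 h replicate 6 set much of that difference, which was 0.18 without it, while without 24 h replicate 4 the change was 0.64 and passed (limma adjusted p = 0.0451, range 0.0451 to 0.24 over the alternatives). MAPT, which encodes tau, went from 6.10 ± 0.0898 to 6.79 ± 0.423 (SD, n = 3 each; limma adjusted p = 0.193; it passed after median-ratio scaling or quantile normalization, with a range from 0.0223 to 0.398 over the alternatives). MAP2 and MAP6 lay below the minimum, MAP2 with 17 to 42 fragments per library and MAP6 with 0 to 3. MAP6 had 0 fragments in 36 h replicates 5 and 6, which allows an FPKM of up to 0.0439 and 0.0533. MAP7 was not analysed here.

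The plus-end proteins held the widest spread of changes, from -0.88 in MAPRE2 to 1.85 in MAPRE3 on the log2 scale. With the stathmins counted, the lower end was -1.62 in STMN2, which reached the minimum through its 24 h libraries only. The end-binding (EB) proteins ride on growing plus ends and recruit the other plus-end proteins. MAPRE3 (ENSSSCG00000029185) encodes EB3, the member of this family that is known to rise in differentiating myoblasts and to be needed for their elongation and fusion. Its FPKM was 57.4, 45.2 and 22.5 at 24 h and 139, 145 and 145 at 36 h. The 36 h libraries were tightly grouped and lay far above all 24 h libraries, among which replicate 6 was lowest. MAPRE3 rose by 1.85 (standard error 0.31, limma adjusted p = 0.00368), a 3.43-fold difference of means, with the call kept in every alternative and a rise of 1.47 without 24 h replicate 6.

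MAPRE1, which encodes the ubiquitous EB1, had 233, 225 and 166 at 24 h and 182, 173 and 181 at 36 h. Its groups overlapped only through 24 h replicate 6. MAPRE1 changed by -0.20 with all libraries (standard error 0.13, limma adjusted p = 0.235) and by -0.36 without that library, where it passed (limma adjusted p = 0.0027, range 0.0027 to 0.905 over the alternatives). MAPRE2, which encodes EB2, was much lower, with 6.04, 4.32 and 7.83 at 24 h and 2.90, 2.97 and 2.45 at 36 h. It fell by 0.88 (standard error 0.19, limma adjusted p = 0.00863), from 61 to 111 fragments per library at 24 h and 38 to 56 at 36 h, and kept its call in every alternative that tested it.

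The EB genes thus changed unequally, MAPRE3 upward and MAPRE2 downward, while MAPRE1 did not pass and changed by -0.02 with median-ratio scaling. A ratio within a library shows unequal change without any scaling between libraries. MAPRE3 stood at 0.247, 0.2 and 0.136 of MAPRE1 at 24 h and at 0.765, 0.838 and 0.799 at 36 h. This pair and the other pairs given as ratios were picked after their values had been seen, so the ratios are descriptions without a test.

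**Figure D2:**
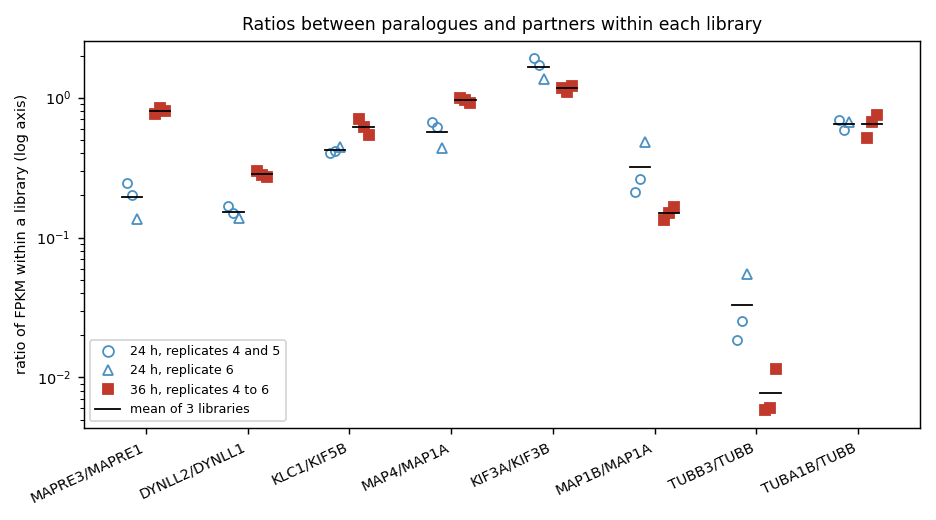
Ratio of the FPKM of the first gene to that of the second within each library, on a log axis, with open circles for 24 h replicates 4 and 5, open triangles for 24 h replicate 6, filled squares for 36 h and a bar at the mean of 3 libraries. MAPRE3/MAPRE1 moves from 0.194 to 0.801 on average and TUBB3/TUBB from 0.0329 to 0.00778, while TUBA1B/TUBB overlaps between the times.

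CLIP1 and CLASP2, which link plus ends to cargo and to the cell cortex, both fell. CLIP1 had 30.3, 29.2 and 26.9 at 24 h and 16.3, 17.6 and 18.4 at 36 h, a fall of 0.69 (standard error 0.08, limma adjusted p = 0.0012). CLASP2 had 24.6, 23.3 and 25.3 at 24 h and 18.1, 16.6 and 15.9 at 36 h, a fall of 0.51 (standard error 0.07, limma adjusted p = 0.00229). In both genes the replicates of a time were close together, 24 h replicate 6 included, and both calls held in every alternative. CLASP1 and CLIP2 were not analysed here.

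The stathmins bind free tubulin dimers and promote the shrinking of microtubules. STMN1, the form of proliferating and many other cells, was among the most abundant members, with 433, 405 and 339 at 24 h and 585, 505 and 489 at 36 h. It rose by 0.43 (standard error 0.12, limma adjusted p = 0.0212), without overlap between the times. Its adjusted p ranged from 0.00905 to 0.0643 over the alternatives and missed the threshold without 24 h replicate 5 and without 36 h replicate 4 or 5. The rise ran opposite to the proliferation genes measured beside it, of which 9 of 11 tested fell, where 34.4% of all genes tested did. The other 2, MCM2 and MCM5, changed by -0.36 and -0.26 without passing. Of those 9, BUB1 reached the minimum through its 24 h libraries only, and AURKB lost its call without 36 h replicate 4 or 5. STMN2, the neuronal form, was near the lower limit of the table. Its FPKM was 1.34, 2.81 and 3.82 at 24 h and 0.16, 0.18 and 0.09 at 36 h, from 28, 57 and 78 fragments against 4, 5 and 2. STMN2 fell by 1.62 (standard error 0.26, limma adjusted p = 0.00348), a value shrunk by the pseudocount of 1, since the means differed 18.6-fold and the change was -4.05 with a pseudocount of 0.01. It reached the minimum through its 24 h libraries only, so that it could hardly be tested without differing. STMN3 was not analysed here.

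Kinesins walk along microtubules, mostly towards the plus end, and carry vesicles, mitochondria, mRNA and nuclei. Of the 12 listed kinesin genes, 9 were tested, 5 fell and 2 rose (77.8% called, 55.6% downward, against 50.9% and 34.4% of all genes tested). KIF5B, the heavy chain of conventional kinesin, which spaces the nuclei of myotubes, was the most abundant kinesin. It had 226, 206 and 174 at 24 h and 143, 148 and 159 at 36 h, without overlap. KIF5B fell by 0.42 (standard error 0.10, limma adjusted p = 0.0151). It no longer passed with median-ratio scaling (log2 change -0.25, limma adjusted p = 0.146), without 24 h replicate 5 or without 36 h replicate 4 or 5, with a range from 0.00203 to 0.146 over the alternatives.

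The light chains of conventional kinesin, which bind its cargo, had positive log2 changes. KLC1 had 90.8, 85.0 and 77.3 at 24 h and 99.9, 91.1 and 85.3 at 36 h, with overlap and a limma adjusted p of 0.265 (log2 change 0.12; 0.30 with median-ratio scaling, where it passed at 0.0447, range 0.0447 to 0.577 over the alternatives). KLC2 had 18.7, 19.2 and 20.1 at 24 h and 22.3, 22.4 and 26.6 at 36 h and rose by 0.28 (standard error 0.09, limma adjusted p = 0.0312). That rise missed the threshold in 4 of the 6 fits that left out a library, those without 24 h replicate 4 or 5 and without 36 h replicate 5 or 6 (range 0.00633 to 0.0882). Within each library, KLC1 stood at 0.401, 0.413 and 0.444 of KIF5B at 24 h and at 0.700, 0.614 and 0.537 at 36 h. The light chain was thus higher relative to the heavy chain in every 36 h library than in any 24 h library.

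KIF3A and KIF3B form the motor pair of the heterotrimeric kinesin, which builds cilia and carries cell contact proteins. KIF3A (ENSSSCG00000014283) showed the lowest limma adjusted p of the members. Its FPKM was 16.6, 16.1 and 17.1 at 24 h and 7.43, 7.23 and 7.54 at 36 h, so the libraries of a time nearly coincided and the level was 2.24-fold lower at 36 h. It fell by 1.06 (standard error 0.06, limma adjusted p = 0.000586) and by 1.04 without 24 h replicate 6. KIF3B had 8.66, 9.41 and 12.6 at 24 h and 6.27, 6.61 and 6.17 at 36 h, a fall of 0.59 (standard error 0.13, limma adjusted p = 0.0106). Both calls held in every alternative. The ratio of KIF3A to KIF3B went from 1.91, 1.71 and 1.36 at 24 h to 1.18, 1.09 and 1.22 at 36 h. KIFAP3, the adaptor of the same motor, fell by 0.23 (standard error 0.07, limma adjusted p = 0.0295), lost that call in 7 alternatives, both scalings among them (range 0.0198 to 0.455), and was named after its value had been seen.

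The other kinesins made smaller moves. KIF1C, a fast vesicle motor, rose from 52.9, 56.5 and 62.8 to 68.7, 72.3 and 76.5 (log2 change of 0.33 with a standard error of 0.08, limma adjusted p = 0.0143; missed without 24 h replicate 5 or 36 h replicate 5, at up to 0.052, range from 0.00272). KIF13A, a motor of endosomes and secretory vesicles, went from 14.6, 13.8 and 13.5 to 9.48, 9.85 and 10.9, a fall of 0.44 (standard error 0.08, limma adjusted p = 0.00451) that held in every alternative. KIF21A, which slows plus-end growth at the cortex, went from 4.41 ± 0.214 to 3.31 ± 0.322 (SD, n = 3 each). Its fall of 0.33 (limma adjusted p = 0.026) was lost in 8 of the 14 alternatives that tested it, both scalings and the replicate block (0.0525) included, with a range from 0.00906 to 0.301. KIF1B, a mitochondrial and vesicle motor, lay at 70.7 ± 13.6 and 71.9 ± 5.62 (SD, n = 3 each), with a limma adjusted p of 0.833. The neuronal kinesins KIF1A, KIF5A and KIF5C stayed below the minimum, with 40 to 79, 1 to 6 and 1 to 12 fragments per library.

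**Figure D3:**
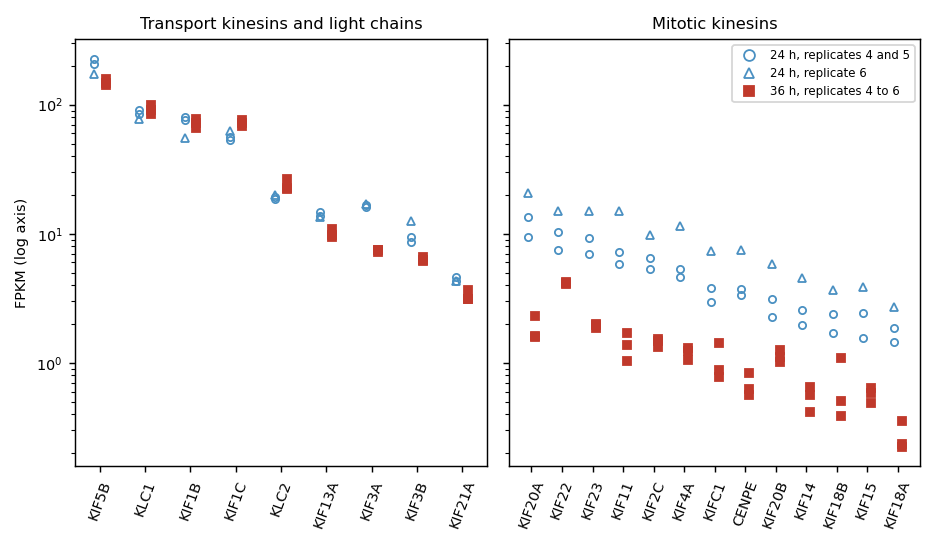
FPKM of each tested transport kinesin or light chain (left) and mitotic kinesin (right) on a log axis, with open circles for 24 h replicates 4 and 5, open triangles for 24 h replicate 6 and filled squares for 36 h. All 13 mitotic kinesins lie lower in every 36 h library than in any 24 h library. The transport kinesins and light chains shift less, by -1.06 to 0.33 on the log2 scale, with KIF3A shifting most.

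Kinesins of the mitotic spindle, which were not members, were set beside them. All 13 of that list were found and tested, and all 13 fell, where 34.4% of all genes tested did, with a median log2 change of -1.43 and a range from -2.39 to -1.08. Of the 13, KIF14, KIF15, KIF18A, KIF18B and CENPE reached the minimum through their 24 h libraries only, so for these 5 the fall was partly fixed by the filter. KIF20A, a motor of cytokinesis, was 7.90-fold lower at 36 h, and KIF11, which pushes the spindle poles apart, 6.82-fold lower. The 9 transport kinesins and light chains had a median of -0.33 and ranged from -1.06 to 0.33. The pseudocount of 1 shrinks the changes of low genes, and with 0.01 the medians were -2.33 for the mitotic list and -0.42 for the transport list. In the mitotic list 24 h replicate 6 was the highest library, with a summed FPKM of 122.7 against 54.7 and 72.0 and 15.6 to 19.0 at 36 h. KIF5B was lowest at 24 h in that same library. These values describe the lists, and the difference between them was not tested.

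Cytoplasmic dynein moves cargo and nuclei towards minus ends. Of its genes and those of dynactin, 8 were tested, of which 5 fell, 2 rose and DYNC1LI1 did not pass (87.5% called, against 50.9% of all genes tested). The intermediate chains, which bind dynactin, both fell. DYNC1I2, the ubiquitous form, had 69.5, 71.9 and 80.9 at 24 h and 53.4, 51.8 and 54.96 at 36 h (log2 change -0.46, standard error 0.07, limma adjusted p = 0.00316). DYNC1I1, the form best known from neurons, had 1.83, 1.78 and 1.93 at 24 h and 0.77, 0.56 and 0.97 at 36 h, from 67 to 73 fragments per library against 28 to 40 (log2 change of -0.69 with a standard error of 0.13, limma adjusted p = 0.00568). As for STMN2, DYNC1I1 reached the minimum only through its 24 h libraries, so that its call has little weight. The call of DYNC1I2 held in every alternative. DYNC1LI1, a light intermediate chain that binds cargo adaptors, lay at 31.3 ± 4.53 and 32.0 ± 0.607 (SD, n = 3 each; limma adjusted p = 0.748). The heavy chain DYNC1H1, DYNC1LI2 and the light chain DYNLT1 were not analysed here.

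The light chains DYNLL1 and DYNLL2 encode near-identical small proteins that also bind many partners outside dynein, and they moved in opposite directions. DYNLL1 (ENSSSCG00000009904) had 391.7, 424 and 474 at 24 h and 301, 304 and 292 at 36 h, a fall of 0.52 (standard error 0.08, limma adjusted p = 0.00327). DYNLL2 (ENSSSCG00000020962) had 65.3, 64.2 and 65.0 at 24 h and 89.7, 85.6 and 79.0 at 36 h, a rise of 0.38 (standard error 0.06, limma adjusted p = 0.00392). Neither gene overlapped between the times, and both calls and directions held in every alternative, the scalings included. The ratio of DYNLL2 to DYNLL1 was 0.167, 0.151 and 0.137 at 24 h and 0.298, 0.281 and 0.271 at 36 h. DYNLL1 remained the higher of the pair throughout.

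Dynactin joins dynein to its cargo and keeps it on its track. DCTN3, the smallest subunit of its shoulder, rose from 58.0, 57.9 and 51.1 to 75.7, 69.2 and 68.2 (log2 change of 0.35 with a standard error of 0.08, limma adjusted p = 0.00971), a call that held in every alternative. DCTN1, the subunit that binds the microtubule, went down from 61.8, 65.6 and 69.1 to 56.7, 53.5 and 54.7 (log2 change of -0.25 with a standard error of 0.06, limma adjusted p = 0.0175). DCTN4 of the pointed end had 43.3 ± 0.629 at 24 h and 38.2 ± 0.809 at 36 h (SD, n = 3 each; log2 change -0.18, limma adjusted p = 0.0303). All genes tested had a median of -0.16, and the falls of DCTN1 and DCTN4 did not hold with median-ratio scaling, where the limma adjusted p was 0.329 and 0.963. DCTN1 also lost its call without 24 h replicate 5 or 36 h replicate 5 (range 0.0165 to 0.329) and DCTN4 in 9 of its 15 alternatives, the replicate block among them (0.0593; range 0.0244 to 0.963). DCTN2 (ENSSSCG00000000444), a shoulder subunit known to be needed for the complex, was almost without reads under its identifier, with 0 to 3 fragments per library, while the other subunits had 970 or more. The 0 of 24 h replicate 4 allows an FPKM of up to 0.127.

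Of the centrosomal and nuclear envelope proteins, CETN2 and SYNE2 fell, and the proteins that move to the nuclear envelope did not pass the test. PCM1, a scaffold of centriolar satellites, had 18.5, 16.9 and 18.4 at 24 h and 18.6, 17.4 and 17.7 at 36 h. PCM1 changed by -0.0045 on the log2 scale with a standard error of 0.07 (limma adjusted p = 0.961), and by 0.16 and 0.11 with median-ratio scaling and quantile normalization. AKAP9, which anchors the nucleation complex, had 37.6 ± 4.43 at 24 h and 41.5 ± 2.21 at 36 h (SD, n = 3 each; limma adjusted p = 0.24). AKAP6, the muscle anchor of this machinery at the nuclear envelope, had 63.4, 54.5 and 27.6 at 24 h and 62.7, 65.4 and 69.99 at 36 h. The groups overlapped, and 24 h replicate 6 was far below the other 5 libraries. The log2 change of AKAP6 was 0.52 (standard error 0.28, limma adjusted p = 0.165) and 0.16 without that library, so most of the difference came from it. PCNT and SYNE1 were not analysed here.

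SYNE2, which encodes the giant nesprin-2 that ties the nucleus to the cytoskeleton, had 5.11, 5.37 and 9.55 at 24 h and 3.61, 3.51 and 3.50 at 36 h. It fell by 0.71 (standard error 0.21, limma adjusted p = 0.0275) and by 0.46 without 24 h replicate 6. The call was lost with quantile normalization and without any of the 36 h libraries (range 0.00522 to 0.0788). CETN2, a small calcium-binding protein of the centriole, went from 65.4, 72.0 and 70.7 to 60.3, 59.5 and 59.5, a fall of 0.21 (standard error 0.06, limma adjusted p = 0.0242). This fall was close to that of the median gene. It did not hold with median-ratio scaling (log2 change -0.04), without 24 h replicate 5 or without any of the 36 h libraries (range 0.0205 to 0.648).

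**Figure D4:**
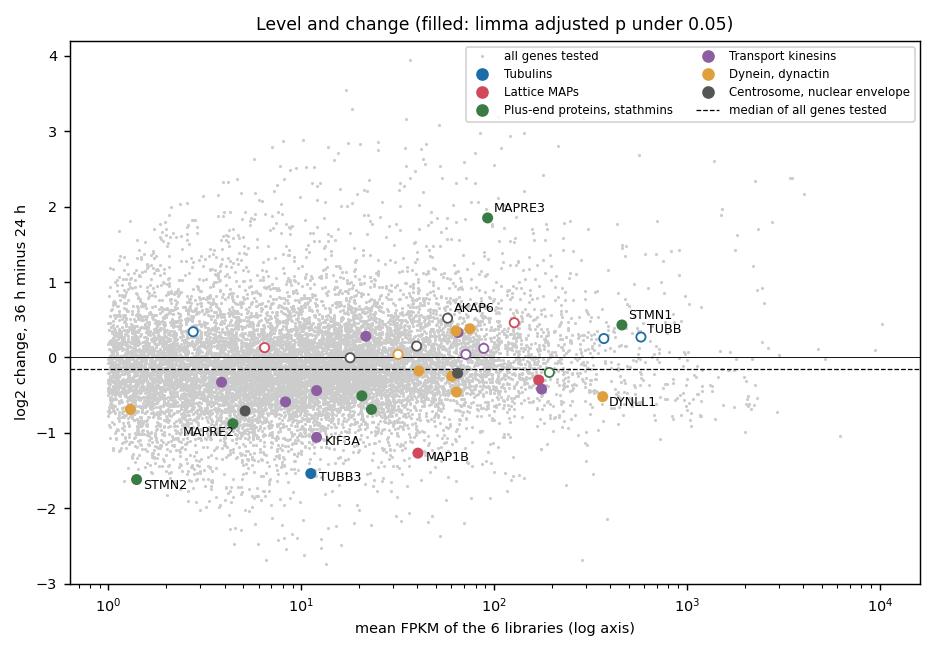
Mean FPKM of the 6 libraries (log axis) against the log2 change from 24 h to 36 h, with all genes tested in grey, the members coloured by role (filled where the limma adjusted p was under 0.05) and the median of all genes as a dashed line at -0.16. Members span mean FPKM values from 1.30 to 576, and MAPRE3 lies highest among them.

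The 8 members with a mean FPKM of at least 100 were TUBB, STMN1, TUBA1B, DYNLL1, MAPRE1, KIF5B, MAP1A and MAP4. Of these, DYNLL1, KIF5B and MAP1A fell, STMN1 rose and 4 did not pass. Across all genes tested, 50.9% passed, 34.4% downward and 16.5% upward. The share that passed was thus near that of all genes and is not particular to the abundant members. On the log2(FPKM + 1) scale the larger falls, in STMN2, TUBB3, MAP1B, KIF3A and MAPRE2, were in genes with a mean FPKM between 1.40 and 40.2. By the ratio of means DYNC1I1, with a mean FPKM of 1.30, was 2.41-fold lower and thus ahead of KIF3A (2.24-fold) and MAPRE2 (2.19-fold).

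How the libraries were scaled mattered for which small changes passed and, over all genes tested, for the balance of rises and falls. For all genes tested, the median change on the log2 scale was -0.16 before and -0.003 after median-ratio scaling, which divides a library by its typical gene's ratio to the average library. Then 10 members rose and 13 fell (of all genes tested, 23.9% rose and 22.2% fell), and 19 of these 23 had been called on the deposited values. TUBA1B, TUBB, MAPT and KLC1 then passed upward, and MAP1A, KIF5B, KIF21A, DCTN1, DCTN4 and CETN2 no longer passed. None of the 25 called members changed sign in any alternative.

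**Figure D5:**
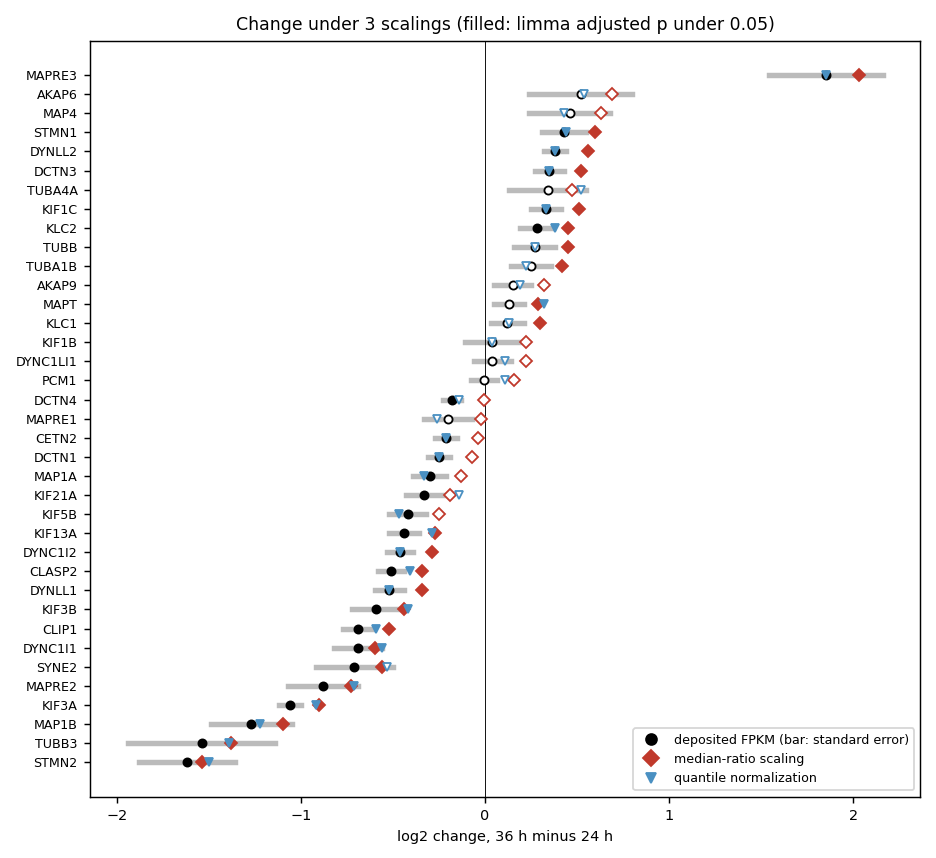
Log2 change from 24 h to 36 h of the 37 tested members on the deposited FPKM values (black circles, grey bar for 1 standard error), after median-ratio scaling (red diamonds) and after quantile normalization (blue triangles), filled where the limma adjusted p was under 0.05. Median-ratio scaling shifts most genes to the right, and the members past the threshold in black stay on their side of 0 in all 3.

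A wider list of 119 genes that fold, modify, nucleate, sever or bind microtubules or serve their motors was read from the same fit. A row was found for 89, 80 were tested, and 16 rose and 27 fell (53.8% called, against 50.9% of all genes tested), with a median log2 change of -0.15. Among the tubulin folding cofactors, TBCC and TBCD, which act late in dimer assembly, rose by 0.51 and 0.42, while TBCA, which holds newly folded beta-tubulin, fell from an FPKM of 125 ± 13.4 to 69.9 ± 3.23 (SD, n = 3 each; log2 change -0.82, limma adjusted p = 0.00118). TTLL5, a glutamylase of tubulin tails, fell by 0.84. Among nucleation genes, TUBGCP2 of the gamma-tubulin complex rose by 0.44 and CROCC of the ciliary rootlet by 0.34, and CDK5RAP2, which activates that complex at centrosomes, fell by 0.74 and NEDD1 by 0.58. CROCC and NEDD1 passed narrowly (limma adjusted p = 0.0411 and 0.0484) and lost their calls in most fits that left out a library.

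The largest change of the wider list was that of KIF24, a kinesin of the mother centriole that restrains cilium formation. It rose from 2.76 ± 0.377 to 13.2 ± 2.81 (SD, n = 3 each), a log2 change of 1.90 with a standard error of 0.16 (limma adjusted p = 0.000752). TRAK1 and TRAK2, alternative adaptors that couple mitochondria to motors, changed in opposite directions. TRAK1 rose from 28.2 ± 0.975 to 53.5 ± 5.15 (log2 change 0.90, limma adjusted p = 0.000868), and TRAK2 fell from 17.6 ± 0.709 to 9.82 ± 0.976 (log2 change -0.79, limma adjusted p = 0.00119; SD, n = 3 each). FEZ2, a kinesin adaptor, fell by 0.46. On the dynein side, CAPZA1, which caps the dynactin filament as well as actin, fell 2.14-fold and the light chain DYNLT3 1.84-fold, while ACTR1A, the main subunit of the dynactin filament, rose by 0.26. Of the microtubule-binding genes, MAP1S and MAP7D1 rose by 0.70 and 0.64, and the kinase MARK4 and the polymerase CKAP5 fell by 0.44 and 0.42. At the nuclear envelope, SUN1, which anchors nesprins, rose from 17.3 ± 1.23 to 30.1 ± 2.56 (log2 change 0.76, limma adjusted p = 0.0013), and the lamins LMNB1 and LMNB2 fell by 1.22 and 0.79. The calls of FEZ2, MARK4 and ACTR1A did not hold in every alternative, and those of the other genes named in this paragraph did.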

How the data were processed

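The deposited table held 1 FPKM column per library, made by the authors from paired-end HiSeq reads of 100 bp. The study's methods name HISAT2 2.0.2, StringTie 1.2.2 and HTSeq 0.6.1 with Sscrofa11.1, and the submitters' processing notes name TopHat2, Cufflinks and HTSeq. Strandedness is not given in the sources used here. The Ensembl numbers of the table end at 31070 and those of the symbol table at 63546. Of the 17 members not analysed here 13 had numbers above 31070. The gene set therefore differs from that of the symbol table, and no coordinates are given. Symbols were paired with 11804 of 25322 Ensembl identifiers. Recovered fragments totalled 16339570 to 16864310 per 24 h library and 17970237 to 21841732 per 36 h library, and whole fragments were recovered for 19543 of 19543 genes detected in 3 or more libraries. Floors of 3 fragments cover counting error only.

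FPKM are not counts, so linear models of log2(FPKM + 1) were fitted by limma 3.58.1 (R 4.3.3, moderated with a mean trend, two-sided tests). Genes entered with an average FPKM of 1 or more, and p-values were adjusted by Benjamini-Hochberg over all of them (threshold 0.05). Changes on this scale understate those of low genes. The step was tested on simulated data in which few genes changed and no library stood apart. That setting differs from these data, so the error rate of the calls here was not tested. The members and lists were chosen with earlier results of these data known. All members are named; per-library values are given for tubulins and, per role, for up to 5 members with the largest changes past the threshold, with MAP4, MAPRE1, STMN1, KLC1, KLC2, DCTN1, PCM1 and AKAP6 added after their values were seen. From each wider list up to 2 rises and 2 falls, and 3 mitotic kinesins at most, are named. No column was left unused.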

Additional observations from a re-analysis of the deposited data

How the results depend on the processing

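Of the 25 called members, 14 kept their call in every one of the 15 alternatives that tested them (2 smaller pseudocounts of 0.1 and 0.01, dropping the filter or raising it to 5, scaling by median ratio or by quantiles, limma without the trend, voom with the recovered fragments, the replicate block, and 6 fits without a library each), and 11 lost it in at least 1; 6 members gained a call in at least 1. Of the 14 members that kept their call, STMN2 and DYNC1I1 had reached the minimum through their 24 h libraries only, so their calls have little weight. The filter of 5 did not test STMN2, DYNC1I1 or MAPRE2. Without 1 library each, 14 to 27 members, 27 to 42 wider-list genes and 4889 to 7336 genes in all passed. Only 4 mitotic kinesins had a mean FPKM of at least 5, and all 4 passed. Signs turned only in members that were not called. KIF1B changed by -0.13 to 0.14 over the fits that left out a library (-0.13 without 24 h replicate 6, -0.01 without 36 h replicate 4), and DYNC1LI1 by -0.06 without 24 h replicate 6. PCM1 changed by 0.16 with median-ratio scaling, by 0.11 with quantile normalization and by -0.04 to 0.02 when libraries were left out, for example 0.0016 without 36 h replicate 6; the cause was not tested. The changes of 0.25 in the sum of TUBA1B and TUBA4A and of 0.24 in that of TUBB and TUBB3 became 0.43 and 0.42 with median-ratio scaling. These sums leave out the isotypes without a row. Pairing by replicate number was not assumed. The deviations of same-numbered libraries correlated at 0.15, -0.02 and 0.18, and those of differently numbered libraries at -0.2 to 0.1. These values do not settle whether the replicates were paired. With the replicate block 23 members and 7034 genes in all were called, and KIF21A and DCTN4 lost their calls. Fragments limit STMN2, DYNC1I1, MAPRE2 and the 6 members below the minimum.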

Other observations

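The 24 h replicate 6 was the 24 h library farthest from the 36 h mean in 16 of the 25 called members (64.0%), close to the 64.4% of all 7156 called genes. In 6 called members (24.0%) it was the nearest instead, namely MAP1A, CLIP1, KIF1C, KIF5B, KIF13A and KLC2, against 21.0% of all called genes. Both shares were near those of all called genes, so nothing here is particular to the members. This grouping was made after the values had been seen, and no test was made of it.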
